A study of Mus musculus with 10 samples.

Results

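The mechanical stress genes of the sarcomere described here are Ankrd1, Ankrd2, Ankrd23, Csrp3, Fhl1, Xirp1, Xirp2 and Mustn1, a set defined by gene symbol. All 8 were found in the deposited table of 21956 genes, and all 8 were among the 13404 genes that passed the filter on low counts. Their estimated counts ran from 118 for Ankrd1 to 35077 for Ankrd23 in a single library. The table holds poly(A) RNA of gastrocnemius, a large calf muscle with mostly fast fibres, from wild-type mice, with 5 samples labelled HLI and 5 labelled Sham. The labels leave HLI unexplained; it is read here as hindlimb ischaemia, with Sham as its operated control. No strain, age, sex or time after surgery is given in the labels used here, and they do not state whether each sample is a different animal. The p-values therefore reflect the spread among these samples alone, part of which may be technical. According to its title, the series is about FGF13 of endothelium, HIF-1α and angiogenesis, and setting HLI against Sham shows how muscle transcripts differ between these conditions.

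The sarcomere, the contractile unit of striated muscle, is also a sensor of load. The muscle ankyrin repeat proteins encoded by Ankrd1, Ankrd2 and Ankrd23 bind an elastic segment of the giant spring protein titin and can also be found in the nucleus. Csrp3 and Fhl1 encode LIM domain proteins that bind partners at the Z-disc and along titin, and Xirp1 and Xirp2 encode actin-binding Xin repeat proteins of the myotendinous junction and of damaged myofibrils. Mustn1 encodes a small protein of the musculoskeletal system linked to myoblast differentiation and fusion. Several of these genes are known as quickly induced markers of stretch, denervation or fibre damage in rodent muscle.

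The tissue label was checked against cell type markers. The 12 mature fibre markers, such as Acta1, Ckm and Mylpf, summed to between 61295 and 163262 CPM in HLI libraries and to between 139096 and 186320 CPM in Sham libraries, where CPM is counts per 1000000 counts of the library after TMM scaling. Among the 5 cardiac muscle markers, Nppa and Myl7 were at 0 in every library. Tnni3 and Mybpc3 were not at 0 throughout but did not pass the filter, and Myh6 averaged 0.92 CPM in HLI and 1.72 CPM in Sham. Library totals lay between 16556385 and 22136299 estimated counts. HLI replicate 3 stood apart, with the lowest mature fibre score, a mean log2 deviation of -1.003 from the mean of the 10 libraries, against -0.30 to 0.31 in the other HLI libraries and -0.018 to 0.42 in Sham libraries. HLI replicate 4 stood apart in its adipocyte score (-2.09, against -0.86 to 0.88 in the remaining 9 libraries) and its tenocyte score (-1.78, against -0.33 to 0.40). In bulk tissue, fewer fibres and less RNA per fibre cannot be told apart.

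The first replicate of each group went against its label in markers of newly formed fibres. Myh3, the embryonic myosin gene, had 7.71, 109, 442, 165 and 79.95 CPM in HLI replicates 1 to 5, against 164, 3.97, 5.63, 5.09 and 4.97 CPM in Sham replicates 1 to 5. The mean log2 deviation of the 7 tested markers was -0.83 in HLI replicate 1, against 0.71 to 3.03 in HLI replicates 2 to 5, while Sham replicate 1 stood at 1.0, against -1.83 to -1.03 in Sham replicates 2 to 5. With both of these libraries left out, a setting chosen after seeing the data, edgeR called 54 of 13451 genes, 51 higher and 3 lower in HLI, and 0 of the 8 members, whereas it called none of all genes with the 10 libraries. Why these libraries stand apart was not tested.

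Promoter sequences show what surrounds the start sites of 3 members in which a script found matches to binding motifs of factors known for stretch-linked or muscle transcription. They come from RefSeq on build GRCm38.p6, each 250 bases ending just before an annotated start site, 5′ to 3′ on the gene's strand. Capitals mark MCAT elements (CATTCC or its reverse complement GGAATG, the site of TEAD factors), AP-1 sites (TGANTCA), CArG boxes of SRF and MEF2 sites, searched on both strands. No marked matches overlap.
Ankrd1: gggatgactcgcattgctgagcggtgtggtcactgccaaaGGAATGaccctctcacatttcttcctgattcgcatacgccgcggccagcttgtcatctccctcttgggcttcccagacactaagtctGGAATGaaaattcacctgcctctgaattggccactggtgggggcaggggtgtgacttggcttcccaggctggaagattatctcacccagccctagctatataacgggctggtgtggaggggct
Xirp2: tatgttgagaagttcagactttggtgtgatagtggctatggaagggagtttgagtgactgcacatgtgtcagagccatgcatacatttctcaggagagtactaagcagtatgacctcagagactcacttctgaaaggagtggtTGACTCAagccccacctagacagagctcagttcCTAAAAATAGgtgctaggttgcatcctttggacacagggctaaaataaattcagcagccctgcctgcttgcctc
Fhl1: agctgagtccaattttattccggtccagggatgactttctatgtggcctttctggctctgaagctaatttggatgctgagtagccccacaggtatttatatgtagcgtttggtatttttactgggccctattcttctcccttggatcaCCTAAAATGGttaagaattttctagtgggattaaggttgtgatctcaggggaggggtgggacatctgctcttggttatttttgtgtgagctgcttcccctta
The Ankrd1 window is chr19:36119845-36120094 (minus strand), the Xirp2 window chr2:67445752-67446001 (plus strand), and the Fhl1 window chrX:56779433-56779682 (plus strand), the first of 2 Fhl1 start sites in the table. Ankrd1, known as a target of YAP and TEAD in cultured cells, had 2 MCAT matches, from 210 to 205 and from 123 to 118 bases before the start. Of 32851 promoter windows of the same length, 12.6% held at least 1 MCAT match and 1.02% held 2 or more. Xirp2 had 1 AP-1 match, from 107 to 101 bases before the start, and 1 MEF2 match, from 74 to 65 bases before it, found in 6.75% and 0.508% of windows. The first Fhl1 window held 1 CArG match, a motif present in 1.47% of windows. In 7 of the 8 members with a sequence, the only other match to these motifs was 1 MCAT element in the second of 2 Ankrd23 windows. The E-box (CANNTG), bound by myogenic factors, was in 66.2% of all windows and is not marked. Xirp1 is named only. A match is a description of letters and was not tested for factor binding.

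The 8 transcripts covered a wide range of levels per transcript length. In TPM, the deposited abundance unit that corrects for transcript length and sums to 1000000 in a library, Ankrd23 averaged 1346 ± 370 TPM in HLI libraries and 1507 ± 116 TPM in Sham libraries (SD, n = 5 each), and Fhl1 averaged 1353 ± 139 TPM in HLI and 1080 ± 171 TPM in Sham. Ankrd1 was the lowest, at 36.8 ± 19.9 TPM in HLI and 19.7 ± 20.7 TPM in Sham. Over the 10 libraries the means ran, from high to low, Ankrd23 (1427 TPM), Fhl1 (1217 TPM), Csrp3 (250 TPM), Ankrd2 (177 TPM), Xirp2 (176 TPM), Mustn1 (94.8 TPM), Xirp1 (83.3 TPM) and Ankrd1 (28.2 TPM). The step between Fhl1 and Csrp3 was the only one between neighbours in this order whose library ranges did not overlap, with Fhl1 above Csrp3 in 10 of 10 libraries. Ankrd23 lay above Fhl1 in 7 of 10 libraries, Csrp3 above Ankrd2 in 7, Ankrd2 above Xirp2 in 6, Xirp2 above Mustn1 in 9, Mustn1 above Xirp1 in 6 and Xirp1 above Ankrd1 in 9. The most abundant and the least abundant members of the ankyrin family thus stood at opposite ends of the order.

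**Figure D1:**
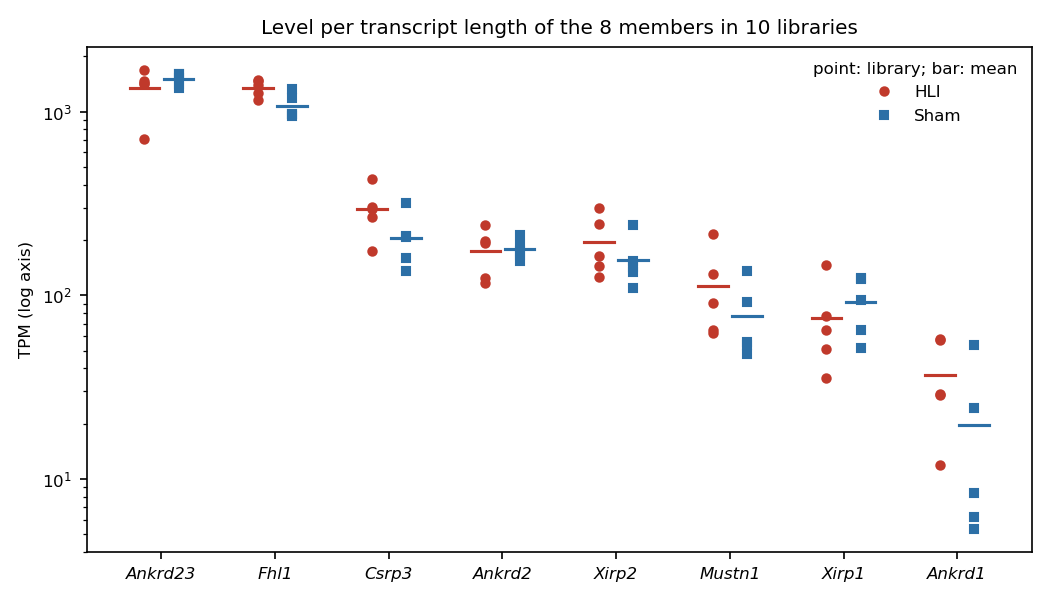
Deposited TPM (log axis) of the 8 genes in each of 5 HLI libraries (circles) and 5 Sham libraries (squares), with bars at the group means, ordered by the mean over 10 libraries. Ankrd23 and Fhl1 sat at the top, with lowest values of 712 and 942 TPM, and Ankrd1 spread from 5.31 to 57.7 TPM.

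None of the 8 genes passed the test between HLI and Sham. In edgeR's quasi-likelihood test with Benjamini-Hochberg adjustment over all genes, 0 of 8 were called at an adjusted p under 0.05, as were 0% of the 13404 genes tested, and the adjusted p of the 8 lay between 0.42 and 0.92. At an unadjusted p under 0.05 the count was 0 of 8, against 16.9% of all genes. Under the alternatives, 10 of 152 values, from Ankrd1, Csrp3, Fhl1 and Xirp1, had an unadjusted p under 0.05. Of all genes, between 1160 of 13493 (without HLI replicate 3) and 4181 of 13522 (without HLI replicate 4) did so in a single alternative. DESeq2 also called 0 of the 8 (adjusted p from 0.44 to 0.95), against 0.321% of the genes edgeR tested and 0.259% of all genes DESeq2 tested. The HLI and Sham ranges overlapped for all 8 genes, whereas they did not overlap for 1.65% of all genes tested. By log2 fold change of HLI over Sham, 5 members lay above 0 and 3 below, with a median of 0.10, and the median of all genes tested was 0.029. Exact two-sided permutation tests of log2 CPM over the 252 assignments of samples to groups gave p from 0.13 to 0.98, where the smallest possible is 0.0079. A p that misses the threshold does not show that the groups were alike, so each member is given below with the 95% interval of its difference.

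**Figure D2:**
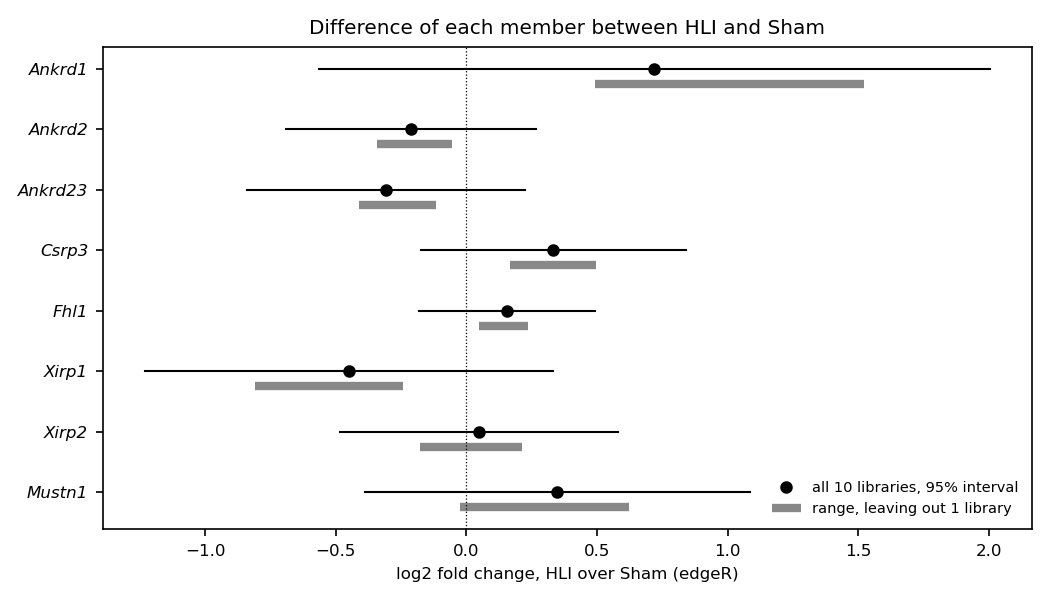
Log2 fold change of HLI over Sham for each gene (black points) with its 95% interval (black lines) from edgeR on all 10 libraries, and the range of the log2 fold change when each library was left out in turn (grey bars). Every interval spans 0, and that of Ankrd1 is the widest, from -0.56 to 2.004.

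Among the ankyrin repeat genes, Ankrd1 (ENSMUSG00000024803), the stretch-inducible member that is scarce in healthy adult limb muscle, had 58.7, 13.1, 48.9, 35.0 and 29.9 CPM in HLI replicates 1 to 5, against 26.9, 10.0, 61.0, 6.92 and 7.82 CPM in Sham replicates 1 to 5. The highest value of all was in a Sham library, replicate 3, while the 3 lowest were also Sham libraries, replicates 2, 4 and 5, and all 5 HLI libraries lay within the Sham range. The log2 fold change was 0.72 (SE 0.59, 95% interval -0.56 to 2.004, edgeR adjusted p = 0.48), a range from 0.676-fold to 4.01-fold. It was 1.52 without Sham replicate 3, where edgeR gave an unadjusted p of 0.0093 and an adjusted p of 0.25, and 0.49 without Sham replicate 4. Ankrd1 differed 8.81-fold between its lowest and highest library, and the SD of its log2 CPM within groups, 1.12, was larger than that of 98.5% of the genes tested. The median SD within groups over all genes was 0.29.

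Ankrd2 (ENSMUSG00000025172), a stretch-responsive relative most abundant in slow fibres, had 135, 75.1, 55.3, 128 and 112 CPM in HLI replicates 1 to 5, against 105, 139, 116, 118 and 107 CPM in Sham replicates 1 to 5. The Sham libraries were close together, with a coefficient of variation of 11.4%, and the HLI libraries were wider, at 34.2%, with replicates 2 and 3 below every Sham library. Its log2 fold change was -0.21 (SE 0.22, 95% interval -0.69 to 0.27, edgeR adjusted p = 0.58), and ran from -0.34 without HLI replicate 1 to -0.057 without HLI replicate 3.

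Ankrd23 (ENSMUSG00000067653), the family member linked to energy metabolism in earlier rodent work, had 1445, 1858, 625.4, 1788 and 1550 CPM in HLI replicates 1 to 5, against 1671, 1699, 1849, 1772 and 2005 CPM in Sham replicates 1 to 5. HLI replicates 1, 3 and 5 lay below every Sham library. HLI replicate 3 was far below, and the other 9 libraries lay between 1445 and 2005 CPM. The log2 fold change was -0.31 (SE 0.24, 95% interval -0.84 to 0.22, edgeR adjusted p = 0.47), and -0.12 without HLI replicate 3. Ankrd23 was the only member whose estimated counts were not whole, in 10 of 10 libraries, as occurs when reads are split between overlapping or similar features. Which feature that would be is not given in the sources used here, and the level of Ankrd23 is less certain than the others.

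The TPM of Ankrd1 divided by that of Ankrd2 in the same library was 0.238, 0.0963, 0.486, 0.150 and 0.146 in HLI replicates 1 to 5, against 0.140, 0.0396, 0.287, 0.0322 and 0.0401 in Sham replicates 1 to 5. HLI replicate 3 alone exceeded every Sham library. The difference of the mean log2 ratio was 1.38 (SE 0.74, exact two-sided permutation p = 0.095, and 0.24 after Benjamini-Hochberg adjustment over 5 ratios, which were chosen after values had been seen).

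Of the LIM domain genes, Csrp3 (ENSMUSG00000030470), which encodes muscle LIM protein of the Z-disc, had 191, 82.9, 114, 157 and 120 CPM in HLI replicates 1 to 5, against 151, 109, 102, 90.4 and 74.4 CPM in Sham replicates 1 to 5. HLI replicates 1 and 4 lay above every Sham library and the other 3 within the Sham range. The log2 fold change was 0.33 (SE 0.23, 95% interval -0.18 to 0.84, edgeR adjusted p = 0.42), the lowest adjusted p among the 8 genes, and ran from 0.17 without HLI replicate 1 to 0.50 without Sham replicate 1. Fhl1 (ENSMUSG00000023092), a LIM-only protein gene mutated in human reducing body myopathy, had 1573, 1385, 1211, 1983 and 1722 CPM in HLI replicates 1 to 5, against 1610, 1265, 1486, 1405 and 1307 CPM in Sham replicates 1 to 5. It was the steadiest member, with a 1.64-fold range over the 10 libraries and a log2 fold change of 0.15 (SE 0.15, 95% interval -0.18 to 0.49, edgeR adjusted p = 0.56), which was 0.048 without HLI replicate 4.

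Of the Xin repeat genes, Xirp1 (ENSMUSG00000079243), which encodes Xin, a binding partner of filamin C, had 425, 160, 87.7, 227 and 228 CPM in HLI replicates 1 to 5, against 296, 415, 402, 192 and 234 CPM in Sham replicates 1 to 5. HLI replicate 1 was the highest library and HLI replicates 2 and 3 the lowest, so the HLI group held both ends. The log2 fold change was -0.45 (SE 0.36, 95% interval -1.23 to 0.33, edgeR adjusted p = 0.47), from -0.81 without HLI replicate 1 to -0.24 without HLI replicate 3. With both replicates 1 left out it was -0.82 (SE 0.34, edgeR adjusted p = 0.22).

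Xirp2 (ENSMUSG00000027022), which encodes the larger relative of Xin, had 653, 932, 1066, 1581 and 834 CPM in HLI replicates 1 to 5, against 934, 836, 1430, 968 and 731 CPM in Sham replicates 1 to 5. The highest libraries were HLI replicate 4 and Sham replicate 3, and the lowest was HLI replicate 1, in which Xirp1 was highest. Its log2 fold change of 0.048 (SE 0.24, 95% interval -0.49 to 0.58, edgeR adjusted p = 0.92) took the opposite sign without HLI replicate 4 (-0.18), Sham replicate 5 (-0.043) or Sham replicate 2 (-0.0025). The TPM ratio of Xirp2 to Xirp1 was 0.866, 3.19, 6.84, 4.60 and 1.87 in HLI replicates 1 to 5, against 1.64, 1.09, 1.94, 2.77 and 1.69 in Sham replicates 1 to 5. Its mean log2 difference was 0.66 (SE 0.56, exact two-sided permutation p = 0.29, and 0.48 after the same adjustment), and 3 of 5 HLI libraries lay above every Sham library.

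Mustn1 (ENSMUSG00000042485) had 134, 41.6, 69.3, 48.5 and 57.7 CPM in HLI replicates 1 to 5, against 61.8, 40.4, 93.6, 42.7 and 37.0 CPM in Sham replicates 1 to 5. HLI replicate 1 and Sham replicate 3 were the highest libraries of their groups. The log2 fold change was 0.35 (SE 0.34, 95% interval -0.39 to 1.09, edgeR adjusted p = 0.55) and ran from -0.023 without HLI replicate 1 to 0.62 without Sham replicate 3, and it was 0.022 with both replicates 1 left out.

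**Figure D3:**
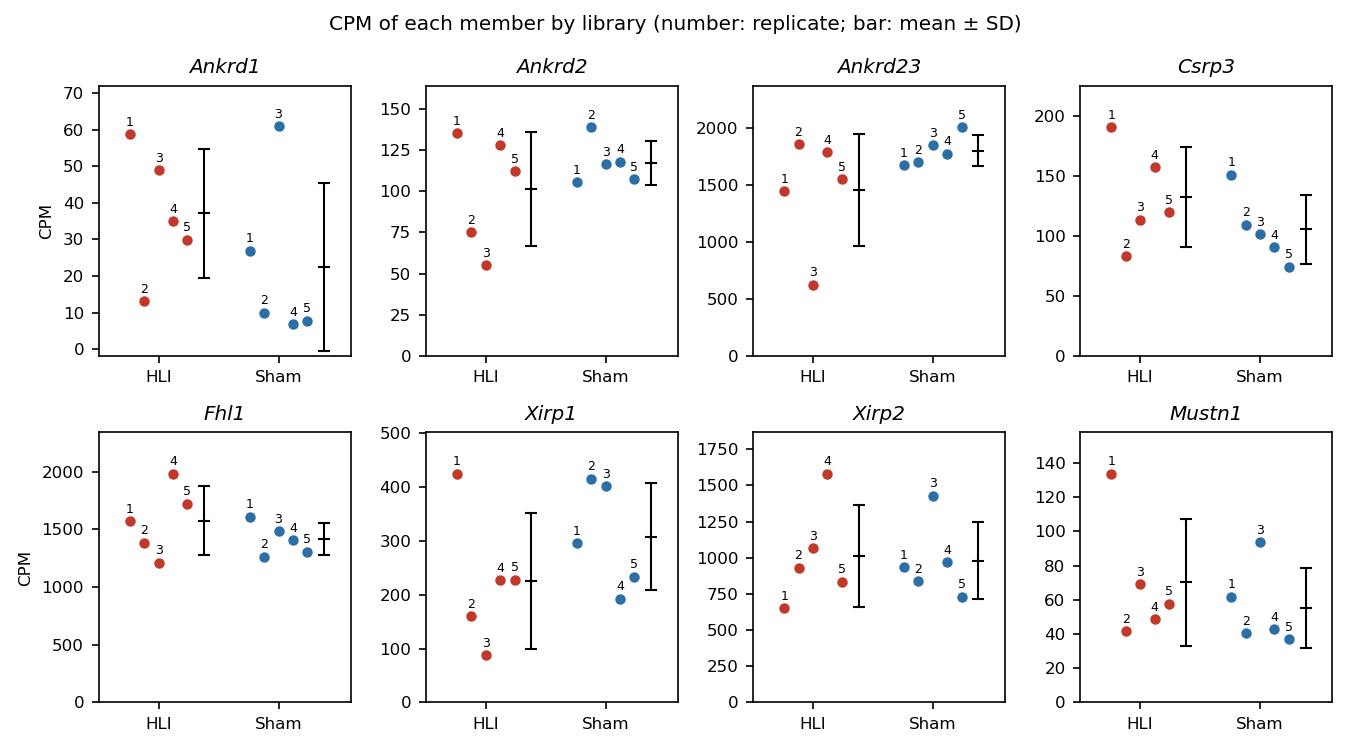
CPM of each gene in every library, HLI left and Sham right, with the replicate number at each point and the mean ± SD of the group beside the points (n = 5 each). The groups overlap in all 8 panels; Sham replicate 3 is the top library for Ankrd1 at 61.0 CPM, and HLI replicate 1 for Mustn1 at 134 CPM.

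The 8 genes did not rank the libraries alike. HLI replicate 1 and Sham replicate 3 each stood among the 3 highest libraries for 5 of 8 genes, and both included Ankrd1, Xirp1 and Mustn1. HLI replicate 3 was the lowest library for 4 genes, Ankrd2, Ankrd23, Fhl1 and Xirp1, and among the 3 highest for Ankrd1, Xirp2 and Mustn1. Sham replicate 5 was lowest for Csrp3 and Mustn1 and highest for Ankrd23. The mean log2 deviation of the 8 genes was 0.49 in HLI replicate 1 and 0.46 in Sham replicate 3, while the remaining 8 libraries lay at -0.38 to 0.29.

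Pairs of members varied in how closely their levels moved together across libraries. Over 10 libraries, which share 2 groups and 1 scaling, Ankrd1 and Mustn1 had a Pearson r of 0.86 in log2 CPM (Spearman 0.87), 0.86 after each group was centred on its mean, and 0.85 without the 2 libraries farthest from the median of Ankrd1. Ankrd2 and Xirp1 had an r of 0.87 (Spearman 0.65) that was 0.51 without the 2 libraries farthest from the median of Ankrd2, and 0.93 within HLI but 0.50 within Sham. These were the 2 of 28 pairs over 0.7, or 7.14%, against 7.94% of the pairs among all genes with a mean of at least 1 CPM, so the count over 0.7 is no larger than the background. The median r of the 28 pairs was 0.32, with 20 pairs above 0, against a median of -0.0022 over all those gene pairs. The 28 pairs share 8 genes, and this difference was not tested. Some of the higher r values rested on few libraries. For Ankrd2 and Ankrd23 r was 0.69 (Spearman -0.030), and -0.40 without the 2 libraries farthest from the median of Ankrd2. For Ankrd23 and Xirp1 it was 0.62 (Spearman -0.067), and -0.16 without the 2 farthest from the median of Ankrd23. Csrp3 and Fhl1 held at 0.61, and 0.64 without the 2 farthest from the median of Csrp3. Xirp1 and Xirp2 had an r of -0.17, and Ankrd1 and Ankrd23 one of -0.45. Ankrd1 and Csrp3 had an r of 0.67, which was 0.47 without the 2 farthest libraries.

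**Figure D4:**
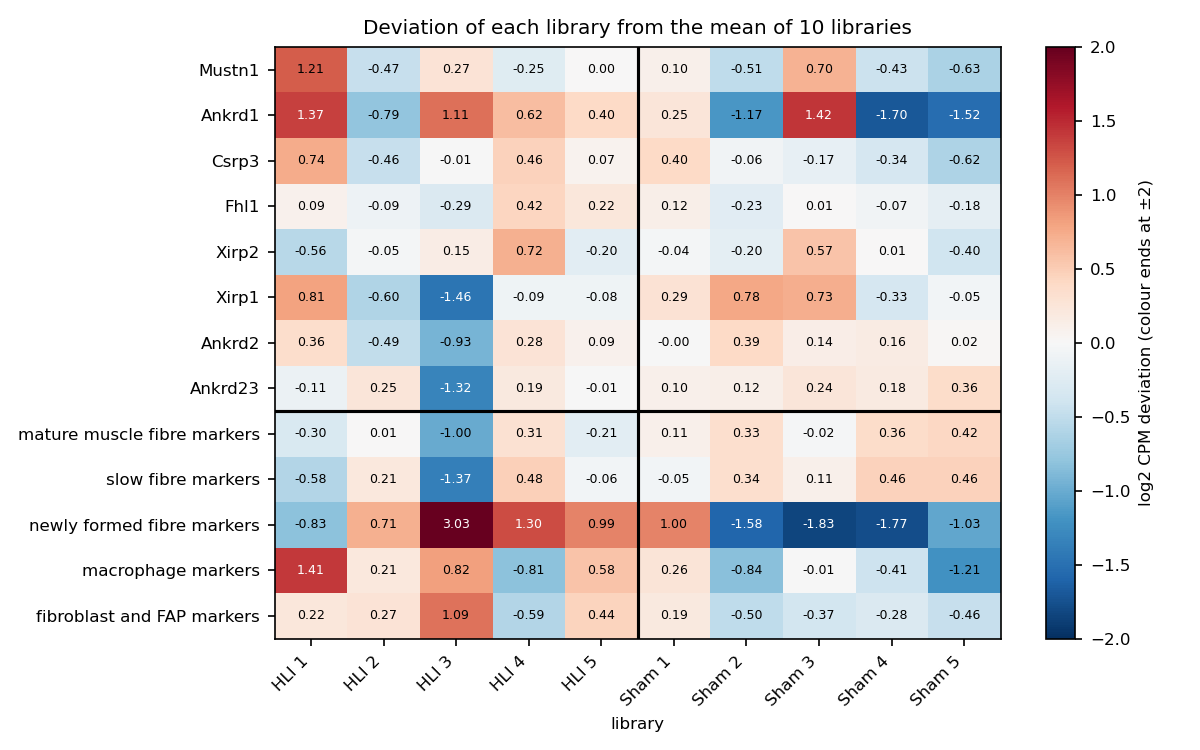
Deviation of each library from the mean of the 10 libraries, in log2 CPM, for the 8 genes and for the mean of 5 marker lists, with HLI libraries left and Sham libraries right. The colour scale ends at ±2. HLI replicate 3 is lowest for Ankrd23 (-1.32) and for the mature fibre markers (-1.003), and Sham replicate 3 is high for Ankrd1 (1.42) with a mature fibre value of -0.018.

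Marker lists of fibres and of other cells moved with some members. Ankrd23 followed the mature fibre markers (Pearson r 0.90, Spearman 0.67, n = 10) and the slow fibre markers (0.92 and 0.78), and r was 0.62 and 0.61 without the 2 libraries farthest from the median of each list, HLI replicate 3 being the lowest library in all 3. Ankrd1 and Mustn1 ran against the mature fibre markers, with r of -0.66 and -0.57 (Spearman -0.81 for each). Mustn1 followed the 7 macrophage markers at r = 0.78 (Spearman 0.79), and 0.51 without the 2 farthest libraries, and Ankrd1 at r = 0.67, and 0.46 without them. The macrophage markers summed to between 683 and 2868 CPM in HLI libraries and to between 511 and 1311 CPM in Sham libraries, and none of them was at 0 in every library. All 7 had a log2 fold change above 0 (median 1.01), and none passed the edgeR test. The 7 tested newly formed fibre markers all had a log2 fold change above 0, with a median of 2.38, and none passed the test. They summed to between 1025 and 2308 CPM in HLI libraries and to between 334 and 1920 CPM in Sham libraries, and the marker with the highest mean was Actc1, a developmental actin gene with 1267 ± 627 CPM in HLI and 1216 ± 554 CPM in Sham (log2 fold change 0.059). Across the 10 libraries Ankrd1 had an r of 0.39 with their score (Spearman 0.25). Other lists ran against some members too. Xirp2 had an r of -0.76 with the tenocyte markers (Spearman -0.77), and -0.79 without the 2 farthest libraries. With the smooth muscle and pericyte markers, r was -0.69 for Ankrd1 and -0.63 for Csrp3. Without the 2 farthest libraries it was -0.72 for Ankrd1 and -0.78 for Csrp3. The part of these markers in the levels of the 8 genes was not tested.

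Setting the values against mature fibre RNA shifts every gene of a library by the same amount, so a shift on this scale is not particular to the 8 genes. When the mean log2 CPM of the 12 mature fibre markers was subtracted in each library, a setting chosen after seeing the data, the median of all genes moved to 0.50, and Ankrd1 stood at 1.57 (SE 0.68), or 1.07 above that median. Fhl1 was at 0.62 (SE 0.18), or 0.12 above the median, and Csrp3 at 0.80 (SE 0.31), or 0.30 above it. Xirp1 was at -0.088, Ankrd23 at 0.081 and Ankrd2 at 0.20, all 3 below the median of all genes. These values come from limma on log2 CPM and the main ones from edgeR, so part of a change can lie in the method. Without subtraction of the markers, limma on log2(TPM + 1) scaled by the median of ratios already gave Ankrd1 1.01 (SE 0.56). Relative to the markers, 0 of the 8 were called in limma, with a lowest adjusted p of 0.17.

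By the rule for likeness, the 2 genes closest to each member by Pearson r of log2 CPM over the 10 libraries were taken from 12913 other genes. The closest to Xirp1 were Diaph1, a formin that nucleates actin filaments (r = 0.98, Spearman 0.93), and Flnc, which encodes filamin C (r = 0.97, Spearman 0.95, and 0.95 without the 2 libraries farthest from the median of Xirp1). Flnc had 1122, 471, 371, 726 and 626 CPM in HLI replicates 1 to 5, against 727, 921, 1080, 585 and 665 CPM in Sham replicates 1 to 5, again with HLI replicate 1 at the top and HLI replicate 3 at the bottom. Mustn1 was closest to Timp1, an inhibitor of matrix metalloproteinases (r = 0.98), which was highest in HLI replicate 1 (66.7 CPM) and next in Sham replicate 3 (40.1 CPM), while the remaining 8 libraries held 6.76 to 15.8 CPM. Its second was Osbpl11, an oxysterol-binding protein relative (r = 0.98).

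Ankrd1 was closest to Cyrib, which encodes a binder of active RAC1 (r = 0.96), and to the kinase gene Bmp2k (r = 0.94). Ankrd23 was closest to Mlxipl, which encodes the carbohydrate-responsive factor ChREBP, and to Myl2, a slow fibre myosin light chain gene (r = 0.97 for each), and r was 0.63 for Mlxipl and 0.64 for Myl2 without the 2 farthest libraries. Myl2 is also one of the slow fibre markers. Ankrd2 was closest to Wdr74, a ribosome assembly factor gene (r = 0.96), and to Plekhb2 (r = 0.95, and 0.53 without the 2 farthest libraries). Xirp2 was closest to Serinc1 and to the splicing factor gene Mbnl2 (r = 0.98 for each), Csrp3 to Itpripl1 (r = 0.92) and Rin1 (r = 0.90), and Fhl1 to the paraoxonase gene Pon2 (r = 0.88) and Peli3 (r = 0.86). None of these 16 genes passed the edgeR test, with a lowest adjusted p of 0.29. The likeness was picked as the highest among 12913 genes over 10 points and is a description.

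**Figure D5:**
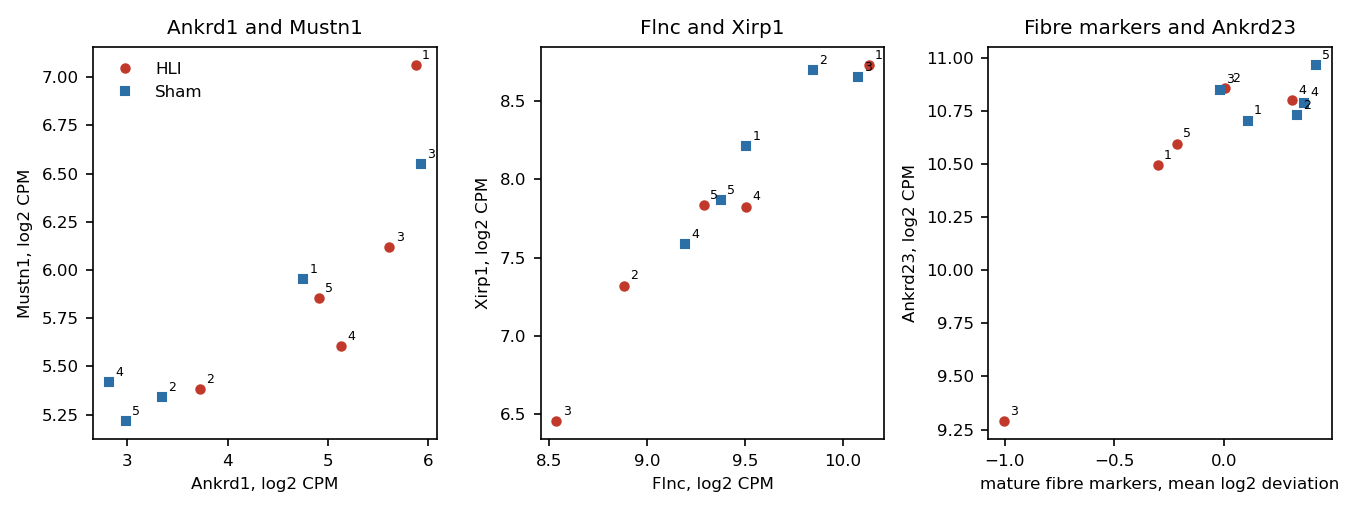
Log2 CPM of Mustn1 against Ankrd1, of Xirp1 against Flnc, and of Ankrd23 against the mean log2 deviation of the 12 mature fibre markers, with 1 point per library (HLI circles, Sham squares, number of the replicate). HLI and Sham points lie along the same band in the first and second panels (r = 0.86 and 0.97), and in the third HLI replicate 3 lies apart at the lower left.

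Other genes of the same biology were taken from 6 lists chosen by role, which share some genes. Across them 93 genes other than the 8 members were tested, and 0 passed the edgeR or the DESeq2 test, with 22, or 23.7%, at an unadjusted edgeR p under 0.05. Of all genes, 0% passed in edgeR, 0.321% in DESeq2, and 16.9% had an unadjusted p under 0.05. Titin and its partners had 2 of 14 genes above 0 and 12 below, with a median log2 fold change of -0.41, against 0.029 over all genes. Of all 13404 genes, 7210 lay above 0 and 6194 below. The 12 mature fibre markers had 1 above 0 and 11 below, with a lower median, -0.50, so the lower direction is not particular to these partners. Ttn itself, the spring to which the ankyrin proteins bind, had 4051 ± 1478 CPM in HLI and 4407 ± 577 CPM in Sham (SD, n = 5 each), which is a difference of -0.12 on the log2 scale (SE 0.24, edgeR adjusted p = 0.78). The partner with the smallest unadjusted p in the lower direction was Smyd2, a methyltransferase that binds titin, at 99.7 ± 24.2 CPM in HLI and 139 ± 12.8 CPM in Sham (log2 fold change -0.48, SE 0.17, edgeR adjusted p = 0.29).

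The 20 Z-disc genes had 2 above 0 and 18 below, with a median of -0.28. Myoz1, which encodes a calcineurin-binding Z-disc protein of fast fibres, had 910 ± 278 CPM in HLI and 1385 ± 259 CPM in Sham, and Tcap, which encodes the titin cap telethonin, had 531 ± 198 CPM in HLI and 833 ± 212 CPM in Sham (log2 fold changes of -0.61 and -0.65, edgeR adjusted p = 0.29 for each). The 21 genes of the myotendinous junction and of filamin C repair had 8 above 0 and 13 below, with a median of -0.048. Among them Nrap, an actin-anchoring protein gene, had 840 ± 228 CPM in HLI and 1157 ± 150 CPM in Sham, and Bag3, a co-chaperone gene for damaged filamin, had 132 ± 31.2 CPM in HLI and 179 ± 27.9 CPM in Sham. Neither passed (log2 fold changes of -0.46, SE 0.20, and -0.44, SE 0.17, edgeR adjusted p = 0.29 for each). The score of this list followed Xirp1 at r = 0.98 (Spearman 0.95, n = 10, and 0.93 without the 2 farthest libraries), and Flnc is among its genes.

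The 12 tested relatives of the ankyrin and LIM members had 9 above 0 and 3 below, with a median of 0.19. Fhl2, a LIM-only relative of Fhl1, had 8.27, 10.4, 9.68, 7.55 and 7.61 CPM in HLI replicates 1 to 5, against 6.14, 6.68, 5.47, 5.38 and 6.36 CPM in Sham replicates 1 to 5. All 5 HLI libraries lay above all 5 Sham libraries, as for 0.776% of all genes, and its log2 fold change of 0.54 (SE 0.14) did not pass (edgeR unadjusted p = 0.0030, adjusted p = 0.29). Csrp2, a LIM relative of Csrp3, had 17.3 ± 10.0 CPM in HLI and 8.63 ± 3.34 CPM in Sham, with 34.2 CPM in HLI replicate 3 and at most 17.8 CPM in the other 9 libraries. Csrp2 did not pass either (log2 fold change 1.01, SE 0.35, edgeR adjusted p = 0.29).

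The 15 genes of YAP and TEAD signalling, which include many targets that Ankrd1 is grouped with, had 9 above 0 and 6 below, and a median of 0.010. Ccn1, a matricellular YAP target, had 67.8 ± 14.5 CPM in HLI and 51.8 ± 8.54 CPM in Sham (log2 fold change 0.39, SE 0.16, edgeR adjusted p = 0.29). Vgll2, a TEAD cofactor gene of muscle, had 35.3 ± 9.80 CPM in HLI and 44.9 ± 7.65 CPM in Sham (log2 fold change -0.35, SE 0.20, edgeR adjusted p = 0.34). The score of this list had an r of 0.34 with Ankrd1 (Spearman 0.38), and 0.070 without the 2 farthest libraries. The 20 genes of SRF and its cofactors had 9 above 0 and 11 below, with a median of -0.12. Acta1, the skeletal actin gene and also one of the mature fibre markers, had 25182 ± 6315 CPM in HLI and 35640 ± 3708 CPM in Sham, with every HLI library below every Sham library, as for 0.873% of all genes (log2 fold change -0.50, SE 0.22, edgeR adjusted p = 0.29). Fhod3, a formin gene of the sarcomere, had 42.1 ± 9.47 CPM in HLI and 58.0 ± 7.53 CPM in Sham, and also did not pass (adjusted p = 0.29).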

How the data were processed

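Per the labels' protocols, poly(A) RNA of 5 HLI and 5 Sham samples, grouped by their titles, was sequenced from both fragment ends on a NovaSeq instrument. The series text names cells and another reagent than the sample protocol, which mentions adipose material, so the extraction is uncertain. Without roles, HISAT2 2.0, Bowtie 0.12.2 and the build mm8 appear in the submitters' processing notes. Counter, annotation and strand use: not given in the sources used here. The authors deposited estimated counts, of which 93.4% are whole and none normalized, and TPM, relative to gene length, per the file headers. RefSeq promoters are of GRCm38.p6 and were matched by symbol for 7 of 8 genes.

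Estimated counts were rounded and tested in R 4.3.3 with edgeR 4.0.16 (TMM, filterByExpr with minimums of 10 and 15, quasi-likelihood test, no covariate, adjusted p under 0.05). A standard error is the log2 fold change divided by the root of F. Log2 CPM used a prior count of 2. Alternatives used limma 3.58.1 with log2(TPM + 1) or log2(TPM + 0.1), and DESeq2 1.42.0 with the rounded counts. The edgeR step was tested on simulated counts of 13404 genes: it recovered 71% of 100 genes set to a 2-fold change and 100% of 100 genes set to a 4-fold change. Every simulated gene had the same dispersion (a biological coefficient of variation of 0.252). These rates therefore need not hold for genes of wider spread, such as Ankrd1. A list score is the mean log2 CPM of its genes relative to the 10 libraries.

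Members and lists were chosen with earlier results of these data known. Named genes are the 8 members, Ttn, Acta1, the 2 genes per list lowest in unadjusted p (mean CPM 1 or more), and the 2 nearest genes of each member; Myh3 and Actc1 were added after their values were seen. Alternatives were the replicate block, leaving out each library, no filter, other scalings, DESeq2, TPM and leaving out both replicates 1.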

Additional observations from a re-analysis of the deposited data

How the results depend on the processing

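Over 19 alternatives, 2 of them (relative to mature fibre markers, and both replicates 1 left out) chosen after seeing the data, none of the 8 genes was called, with a lowest adjusted p of 0.17, and 146 of 152 values kept their sign. Unadjusted edgeR p was under 0.05 for Ankrd1 (0.017 with the replicate block, 0.0093 without Sham replicate 3) and Csrp3 (0.049 without Sham replicate 1). The same held for Xirp1 (0.024 without HLI replicate 1, 0.036 without both replicates 1) and, in limma on TPM, for Fhl1 (0.024). Relative to mature fibre markers, limma gave Ankrd1 0.039, Csrp3 0.023 and Fhl1 0.0043, where 4007 of 13404 genes were also under 0.05. The 6 values of opposite sign were from Xirp2 (leaving out 1 library gave -0.18 to 0.21, the negative values being -0.18 when HLI replicate 4 was left out, -0.043 for Sham replicate 5 and -0.0025 for Sham replicate 2), Mustn1 (-0.023 without HLI replicate 1, and up to 0.62), and, relative to mature fibre markers, Ankrd2 (0.20) and Ankrd23 (0.081), a scale that moves the all-gene median to 0.50. The cause of these was not tested. On log2(TPM + 1) the median of all genes was 0.19 and Ankrd1 stood at 1.20. After leaving out 1 library Ankrd1 ran from 0.49 to 1.52, Csrp3 from 0.17 to 0.50, Fhl1 from 0.048 to 0.24, Xirp1 from -0.81 to -0.24, Ankrd2 from -0.34 to -0.057 and Ankrd23 from -0.41 to -0.12.

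Of all genes, 45 were called by DESeq2, 54 by edgeR with both replicates 1 left out, and 0 under every other alternative. The 2262 genes at an unadjusted p under 0.05 became 1160 (without HLI replicate 3) to 4181 (without HLI replicate 4) when 1 library was left out (1173, 1401 and 1188 without Sham replicates 2, 4 and 5), and 4007 relative to mature fibre markers. The titles number the replicates but do not say that equal numbers form pairs. Same-numbered libraries correlated in their deviations at -0.0090 to 0.28, and 0 of 5 HLI libraries were closest to their own number. With 5 libraries a group, these values are too few to decide whether the samples were paired. With the replicate block 0 genes were called and 2986 had an unadjusted edgeR p under 0.05, and Ankrd1 stood at 1.07 (SE 0.36, edgeR adjusted p = 0.17). Ankrd1 had 118 to 1138 estimated counts a library and a within-group SD of 1.12 in log2 CPM, and the number of samples, 5 a group, limits the precision of all 8 differences.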
